A study of Mus musculus with 30 samples.

Results

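The 10 genes described here are ones that dividing cells switch on, measured by RNA-seq in the spinal cord of mice after a cortical stroke: Mki67, Top2a, Cdk1, Ccna2, Mcm2, Mcm5, Mcm6, Pcna, Rrm2 and Cdc45. They were chosen by name, and all 10 have a row among the 16995 genes of the deposited expression table. The tissue was gray matter of the cervical cord at levels C5/C6, cut down by hand to the intermediate laminae of the side that the stroke had denervated, from adult female C57BL/6 mice. The stroke groups had received a photothrombotic lesion of the right sensorimotor cortex, made by illuminating the skull after injection of the dye Rose Bengal, and were killed at 4, 7, 14, 28 or 42 days post-injury (dpi), while the group labelled Ctrl was, by the study's methods, sham-operated without illumination. All groups were of 1 strain without any transgene. Values were given for 29 of the 30 labelled animals, 4 at 4 dpi and 5 in each other group. By its methods, the study left 1 animal of the 4 dpi group out as an outlier in its own test of differential expression, so the values at 4 dpi rest on a group chosen in that way. The lesion lies in the cortex, away from the dissected tissue. A piece of gray matter holds neurons, glia and vessels together, so more cells of a type and more RNA per cell cannot be told apart.

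A cell that divides first loads the MCM helicase on its replication origins, fires them with the help of CDC45, copies its DNA with polymerases held on by the PCNA clamp, and builds the nucleotides for this with ribonucleotide reductase, whose small subunit is RRM2. Cyclin A2 and the kinase CDK1 then drive the cell through late S phase into mitosis, while topoisomerase IIα, the product of Top2a, untangles the chromosomes and Ki-67, the product of Mki67, coats them. Ki-67 and topoisomerase IIα are made mostly in S, G2 and M phase and are removed when a cell leaves the cycle, which makes their mRNAs common markers of dividing cells. PCNA and the MCM proteins also serve in DNA repair or persist longer, so they are less strict markers. In the adult cord neurons do not divide. Oligodendrocyte precursors divide slowly, and microglia are known to multiply where axons degenerate.

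The mRNAs for the late cycle proteins are controlled through promoter elements that repress them in resting cells: the cell cycle homology region (CHR), to which the DREAM complex binds, usually together with CCAAT boxes, and E2F sites, the latter mostly in genes of replication. The RefSeq promoter table (GRCm38.p6) has a window from 250 bases before to 50 after the start site for 9 of the 10 genes. Ccna2 has no entry. The 250 bases before the start site are shown for the 3 genes with the largest log2 differences from sham at 4 dpi (Mki67, Top2a and Cdk1) and for Mcm6 and Pcna, whose differences were small. All 5 lie on the minus strand and are written 5′ to 3′ along the gene. The stretches are chr7:135716380-135716629 (Mki67), chr11:99024190-99024439 (Top2a), chr10:69352913-69353162 (Cdk1), chr1:128359706-128359955 (Mcm6) and chr2:132253181-132253430 (Pcna). Capitals mark, on either strand, the CHR words TTTGAA and TTCGAA and the CCAAT box. They also mark the E2F word TTCCCGC with its variants (the second written TTGGCGC, the third written TTCGCGC and the last written TTGCCGC).
Mki67: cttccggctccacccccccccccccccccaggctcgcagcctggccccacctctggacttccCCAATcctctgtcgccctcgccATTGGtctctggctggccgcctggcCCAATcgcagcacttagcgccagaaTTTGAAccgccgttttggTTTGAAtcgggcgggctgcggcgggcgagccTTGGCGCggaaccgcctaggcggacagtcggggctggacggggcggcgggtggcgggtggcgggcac
Top2a: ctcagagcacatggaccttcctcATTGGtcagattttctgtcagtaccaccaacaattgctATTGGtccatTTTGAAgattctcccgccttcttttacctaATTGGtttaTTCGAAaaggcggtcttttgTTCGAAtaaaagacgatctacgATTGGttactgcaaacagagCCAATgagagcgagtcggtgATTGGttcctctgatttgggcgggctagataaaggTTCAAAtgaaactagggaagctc
Cdk1: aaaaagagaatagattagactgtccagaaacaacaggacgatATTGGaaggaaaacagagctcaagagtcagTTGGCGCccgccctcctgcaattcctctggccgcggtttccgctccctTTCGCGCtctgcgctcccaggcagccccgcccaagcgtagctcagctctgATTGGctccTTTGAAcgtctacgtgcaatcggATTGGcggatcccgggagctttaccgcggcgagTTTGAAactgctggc
Mcm6: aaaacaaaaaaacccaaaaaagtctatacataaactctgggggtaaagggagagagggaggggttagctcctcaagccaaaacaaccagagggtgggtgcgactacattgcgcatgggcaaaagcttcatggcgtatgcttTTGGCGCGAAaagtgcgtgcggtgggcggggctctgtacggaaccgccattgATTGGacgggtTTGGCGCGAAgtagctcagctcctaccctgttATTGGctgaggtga
Pcna: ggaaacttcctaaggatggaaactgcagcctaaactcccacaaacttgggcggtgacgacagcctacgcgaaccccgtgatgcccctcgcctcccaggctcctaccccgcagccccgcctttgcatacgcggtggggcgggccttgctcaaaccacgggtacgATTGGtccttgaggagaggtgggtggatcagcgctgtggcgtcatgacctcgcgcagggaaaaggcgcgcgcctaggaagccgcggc

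Mki67 held 2 CHR words, 3 CCAAT boxes and 1 E2F word in its window, Top2a 4 CHR words and 6 CCAAT boxes, and Cdk1 2 CHR words, 3 CCAAT boxes and 2 E2F words. Mcm6 had no CHR word but 5 E2F words, some of which overlap, and Pcna only 1 CCAAT box. Over the 9 windows, CCAAT was found in 9, a CHR word in 5 (Mki67, Top2a, Cdk1, Mcm2 and Cdc45) and an E2F word in 5 (Mki67, Cdk1, Mcm5, Mcm6 and Rrm2). Of all 32851 windows in the table, 37.4% held CCAAT, 19.2% a CHR word and 9.57% an E2F word. CHR and CCAAT stood together in 5 of the 9 windows and in 7.52% of all. These matches are letters only, and no binding was measured.

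Values are CPM (read counts scaled to the size of the library) that the authors normalized further and rounded to steps of 0.1. Of the 10 genes 9 were low, averaging 5 or less, while Pcna averaged 17.3. The values of the 10 ran from 0.3 to 22.2. A step of 0.1 is then a large share of a value such as 0.6 for Cdk1. Read depth per animal is unknown. To compare genes with each other, the values in sham were divided by the length of merged exons (GENCODE M21). Pcna stood far above the others with 7.17 ± 0.748 CPM per kilobase (SD, n = 5). The helicase subunits Mcm6 (0.767 ± 0.211), Mcm2 (0.696 ± 0.129) and Mcm5 (0.491 ± 0.113) followed on this scale with overlapping ranges. Rrm2 (0.383 ± 0.136), Cdc45 (0.308 ± 0.0933) and Ccna2 (0.269 ± 0.0995) were lower and overlapped each other. Means were lowest for Top2a (0.197 ± 0.0363), Mki67 (0.135 ± 0.0437) and Cdk1 (0.134 ± 0.0395), whose ranges overlapped that of Ccna2. The relatives that work outside the cell cycle were at far higher levels per kilobase. Top2b, the topoisomerase of neurons and other resting cells, stood 24.2 times above Top2a. Rrm2b, the small reductase subunit of resting cells, stood 7.94 times above Rrm2, and Cdk5, a kinase of neurons, 181 times above Cdk1.

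**Figure D1:**
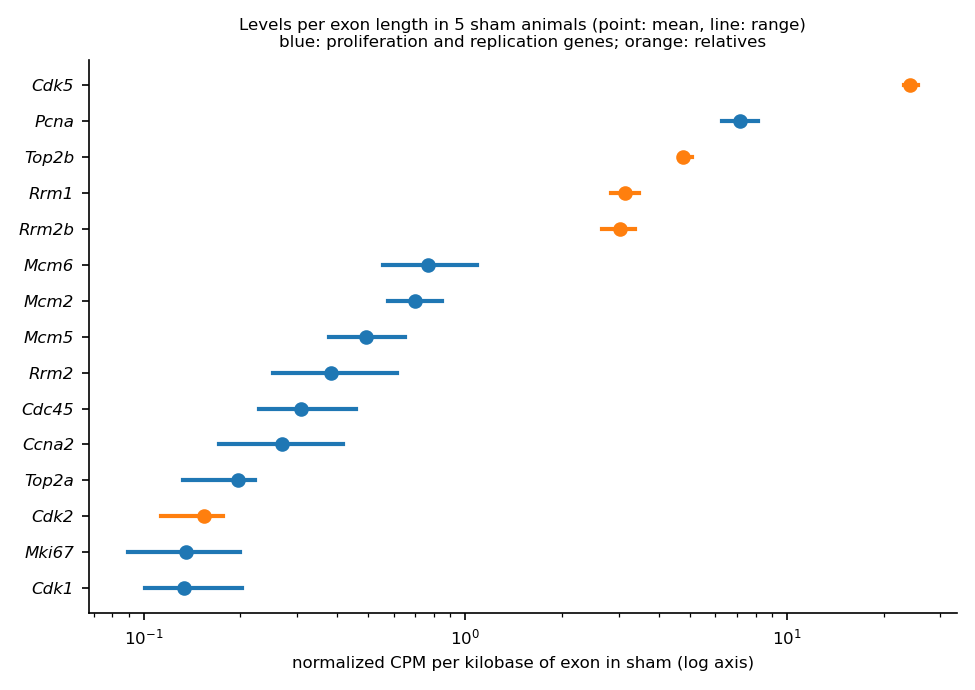
Levels in the 5 sham animals, in normalized CPM per kilobase of merged exon on a log axis; points are means and lines run from the lowest to the highest animal, with the 10 genes in blue and their relatives in orange. Pcna (7.17) is the only blue point among the relatives Top2b, Cdk5, Rrm1 and Rrm2b, while Mki67, Cdk1 and Top2a are at the bottom beside Cdk2.

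The tissue and its libraries showed the following over the whole series. All 10 neuron markers examined were present in every group, among them Snap25 and the glycine transporter gene Slc6a5, which is typical of spinal cord. The summed value per animal ran from 714597 to 2256910. The ribosomal RNA gene Rn18s-rs5, left after depletion, ran from 18295 to 114026 at 4 dpi, from 30321 to 52929 in sham, from 36202 to 116302 at 7 dpi, up to 817780 at 14 dpi and 779160 at 28 dpi, and from 78737 to 457302 at 42 dpi, where every animal lay above the sham range. The animals carry a unit number in their labels (A1 to A12) whose meaning is not given. Only unit A3 holds animals of 2 groups (28 and 42 dpi), so unit and group cannot be told apart.

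Mki67 (ENSMUSG00000031004; chr7:135689784-135716361, mm10, minus strand) was the one gene of the 10 that passed the test against sham, at 4 dpi. Its values in sham were 2.0 (animal A11-1), 1.4 (A11-4), 1.5 (A12-1), 0.9 (A12-2) and 1.0 (A12-3), a mean of 1.36 ± 0.439 (SD, n = 5). At 4 dpi they were 3.7 (A10-1), 2.4 (A10-4), 4.8 (A9-2) and 5.6 (A9-4), a mean of 4.12 ± 1.39 (SD, n = 4). All 4 animals stood above the highest sham animal, those of unit A9 higher than those of unit A10. On the scale of log2(value + 0.5) Mki67 rose by 1.29 ± 0.263 (SE; 95% interval 0.76 to 1.83), with an adjusted p of 0.0355 (limma, Benjamini-Hochberg over all 16995 genes). To be called, a gene had to pass both an adjusted p of 0.05 and a 1.5-fold change, and 1 of the 10 genes was called at 4 dpi where 0.0941% of all genes were (16 genes). A two-sided exact permutation test of this gene alone gave p = 0.0159, the smallest that 4 against 5 animals allow. The call was close to the limit. It was lost without sham animal A11-4 (adjusted p = 0.0782), A12-1 (0.0766), A12-2 (0.0902) or A12-3 (0.111), and without 4 dpi animal A10-1 (0.0639), A9-2 (0.0775) or A9-4 (0.242), while the log2 fold change stayed between 1.14 and 1.5 over the 9 single omissions.

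At 7 dpi Mki67 was back among the sham values. The 5 animals gave 0.9, 2.6, 0.9, 1.8 and 0.7, a mean of 1.38 ± 0.804, and only the animal at 2.6 (A7-3) exceeded the sham range. The step from 4 to 7 dpi was a log2 difference of -1.34 ± 0.263, with an adjusted p of 0.0985 (limma) that missed the limit, and no gene of the table was called in this step (limma; 126 genes were higher and 369 lower at an unadjusted p under 0.05). The step of Mki67 passed without 4 dpi animal A10-4 (adjusted p = 0.0361) or 7 dpi animal A7-3 (0.0221). Means at later times were 1.22 ± 0.554 at 14 dpi, 0.90 ± 0.339 at 28 dpi and 1.40 ± 0.255 at 42 dpi (n = 5 each). None of these groups was separated from sham. Their log2 differences from sham were -0.14, -0.41 and 0.05, and the 95% intervals ended at 0.37, 0.09 and 0.56, all below the lower end of the interval at 4 dpi. Over the time course as a whole, Mki67 differed among the 6 groups (limma F test, adjusted p = 0.00067).

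**Figure D2:**
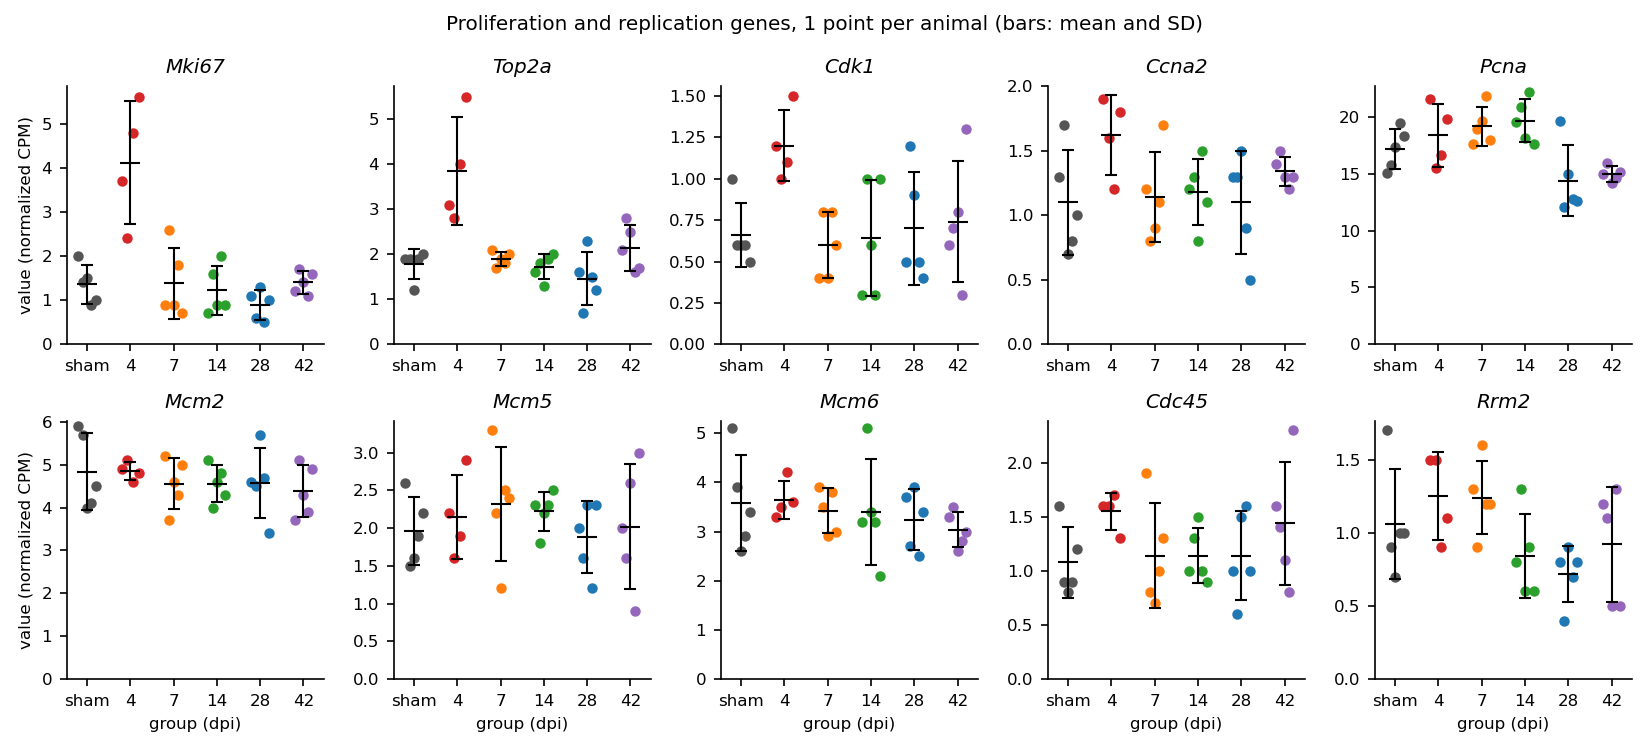
Normalized CPM of each of the 10 genes in sham and at 4 to 42 dpi, 1 point per animal, with the group mean and SD as bars. All 4 animals at 4 dpi lie above every sham animal for Mki67 (2.4 to 5.6) and Top2a (2.8 to 5.5); the other 8 genes overlap sham at every time point.

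Top2a (ENSMUSG00000020914, chr11:98992943-99024189, mm10, minus strand) ranked the 4 animals at 4 dpi in the same order as Mki67. Sham animals gave 1.9, 1.9, 1.2, 1.9 and 2.0, in the order of animals above, with a mean of 1.78 ± 0.327. At 4 dpi the values were 3.1 (A10-1), 2.8 (A10-4), 4.0 (A9-2) and 5.5 (A9-4), with a mean of 3.85 ± 1.21. Again all 4 animals stood above the whole sham range, which 1.09% of all genes did at 4 dpi (185 genes) and which 2 of the 10 genes did. The log2 difference was 0.91 ± 0.195 (95% interval 0.51 to 1.30), with an adjusted p of 0.054 (limma) that just missed the limit. The exact permutation p was 0.0159. At 7 dpi Top2a gave 2.1, 1.7, 1.9, 1.8 and 2.0, so that all 4 animals at 4 dpi also stood above every animal at 7 dpi, as for 0.5% of all genes. This step had a log2 difference of -0.82 ± 0.195 and did not pass over all genes (adjusted p = 0.57, limma). Later means were 1.72 ± 0.277, 1.46 ± 0.586 and 2.14 ± 0.513 at 14, 28 and 42 dpi. The F test over the 6 groups passed for Top2a (adjusted p = 0.00122, limma), which was 1 of 3 genes of the 10 that did, with Mki67 and Pcna. Of all genes 31.6% passed this test, so 3 of 10 is near the background.

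Cdk1 (ENSMUSG00000019942; chr10:69336635-69352938) and Ccna2 (ENSMUSG00000027715; chr3:36564865-36572150), the kinase and one of its cyclins, stood higher at 4 dpi than in sham but did not pass the test. Cdk1 was 1.0, 0.6, 0.6, 0.6 and 0.5 in sham and 1.2, 1.0, 1.1 and 1.5 at 4 dpi. The lowest animal at 4 dpi equalled the highest sham animal, and the log2 difference was 0.56 ± 0.232 (unadjusted p = 0.0227, adjusted p = 0.793, limma). Ccna2 was 1.3, 1.7, 0.7, 0.8 and 1.0 in sham and 1.9, 1.6, 1.2 and 1.8 at 4 dpi, with a log2 difference of 0.43 ± 0.198 (unadjusted p = 0.0369, adjusted p = 0.908, limma). Its groups overlapped. At 7, 14, 28 and 42 dpi the log2 differences of Cdk1 from sham lay between -0.08 and 0.06 and those of Ccna2 between -0.01 and 0.24.

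Genes of the replication machinery had smaller log2 differences at 4 dpi than Mki67 and Top2a, a contrast between genes that was not tested. Cdc45 (0.39) was near Ccna2 (0.43). Cdc45, which completes the active helicase, was 1.6, 0.9, 0.8, 0.9 and 1.2 in sham and 1.6, 1.6, 1.7 and 1.3 at 4 dpi, a log2 difference of 0.39 with a 95% interval from -0.05 to 0.84. The helicase subunits were nearly level between these groups. Mcm2 averaged 4.84 ± 0.899 in sham and 4.85 ± 0.208 at 4 dpi, Mcm5 1.96 ± 0.451 and 2.15 ± 0.557, and Mcm6 3.58 ± 0.983 and 3.65 ± 0.387. Their log2 differences of 0.02, 0.10 and 0.05 had 95% intervals from -0.25 to 0.29, from -0.36 to 0.56 and from -0.30 to 0.41, and all 3 upper ends lie below the lower end of the interval of Mki67. Rrm2 averaged 1.06 ± 0.378 in sham and 1.25 ± 0.30 at 4 dpi, a log2 difference of 0.18 (-0.25 to 0.60). It was lowest at 28 dpi, with 0.8, 0.4, 0.9, 0.7 and 0.8 in the 5 animals, beside 1.7, 0.9, 0.7, 1.0 and 1.0 in sham. These groups overlapped, and the log2 difference of -0.34 did not pass (adjusted p = 0.20, limma). Cdc45 had its highest single value at 42 dpi, 2.3 in animal A3-4, where the group ran from 0.8 and overlapped sham (log2 difference 0.27, adjusted p = 0.576, limma). For none of the 3 helicase subunits did any later group differ from sham by more than 0.18 on the log2 scale.

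Read as a whole, all 10 genes had a log2 difference above 0 at 4 dpi, where 51.9% of all genes did. Their median was 0.29, beside 0.0057 for all genes. Over all other settings and single omissions this median stayed between 0.21 and 0.40. Unadjusted p-values under 0.05 (limma) with a higher value were found for 4 of the 10 (Mki67, Top2a, Cdk1 and Ccna2) and for 2.78% of all genes. In the exact permutation test p was 0.0317 for Cdk1 and 0.0952 for Ccna2, beside 0.0159 for Mki67 and Top2a. At 7, 14, 28 and 42 dpi the medians were 0.04, -0.05, -0.09 and 0.02, and no gene of the 10 was called (limma), beside 0.0294%, 0.00588%, 4.64% and 0.0235% of all genes. At these times an unadjusted p under 0.05 (limma) was found for Pcna alone, lower at 28 dpi, where 18.3% of all genes were higher and 20.2% lower by that rule. The shares of all genes were 2.22% higher and 3.61% lower at 7 dpi. They were 6.25% higher with 5.36% lower at 14 dpi, and 8.4% higher with 6.35% lower at 42 dpi. In the exact permutation test against sham, Pcna had p = 0.119 at 28 dpi and p = 0.0476 at 42 dpi, lower at both times. With every animal scaled to the same sum, where the median of all genes at 28 dpi moves by -0.72, 7 of the 10 would be called lower at 28 dpi, with log2 differences from -1.02 (Pcna) to -0.64 (Mcm5), and 64.9% of all genes with them, so 7 of 10 is near the background.

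**Figure D3:**
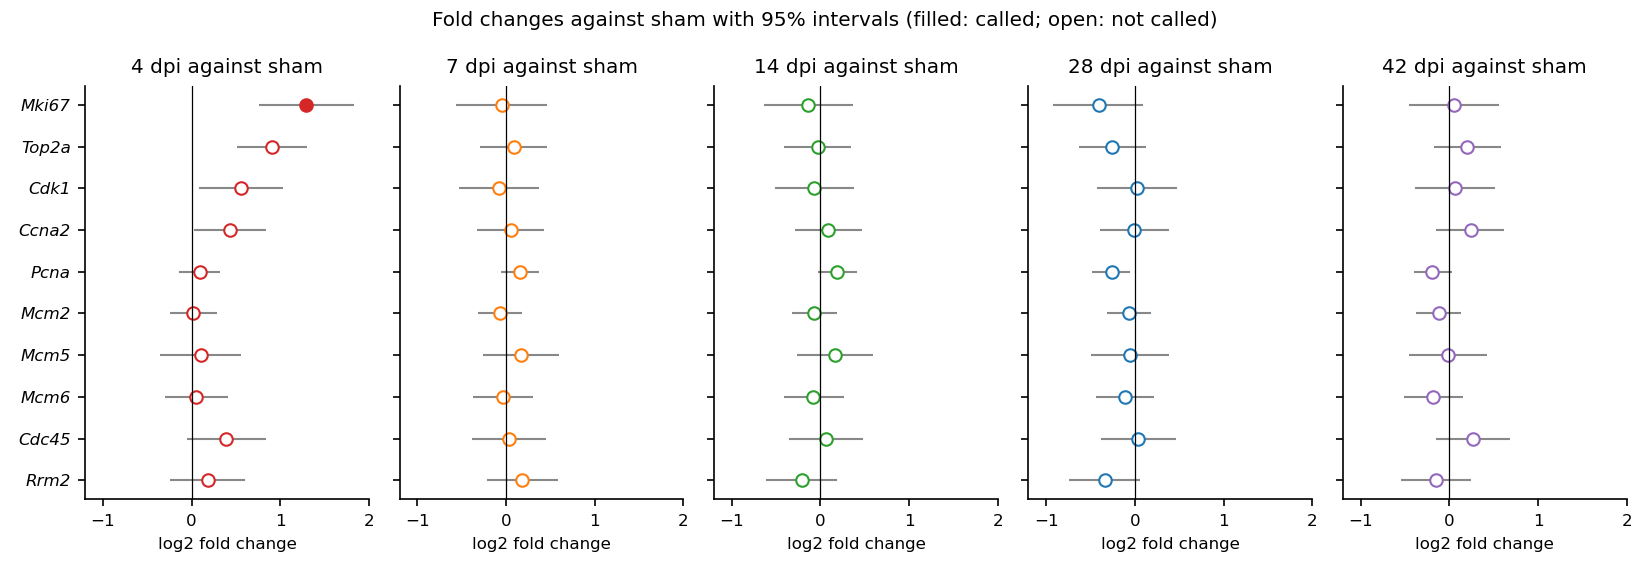
Log2 fold change of each of the 10 genes against sham at 5 time points, with 95% intervals; filled points passed an adjusted p of 0.05 and a fold of 1.5, open points did not. Mki67 at 4 dpi (1.29) is the only filled point, Top2a (0.91) is next, and the MCM genes and Pcna lie near 0 at that time.

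Pcna (ENSMUSG00000027342; chr2:132249162-132253314), the replication clamp, was lower at 28 than at 14 dpi. It averaged 17.2 ± 1.8 in sham, 18.4 ± 2.8 at 4 dpi, 19.2 ± 1.7 at 7 dpi and 19.7 ± 1.89 at 14 dpi. The 5 animals at 14 dpi gave 19.6, 20.9, 18.2, 22.2 and 17.6, and those at 28 dpi 19.7, 12.1, 15.0, 12.8 and 12.6, a mean of 14.4 ± 3.14. All but animal A3-1 at 28 dpi (19.7) stood below the animals at 14 dpi. In this step Pcna fell by 0.45 on the log2 scale (95% interval of the difference -0.67 to -0.24), with an adjusted p of 0.00113 (limma), a change under the fold limit of 1.5 and so not called. In this step 43% of all genes had an adjusted p under 0.05 and 11.8% were called. At 42 dpi Pcna stayed at 15.0 ± 0.678. Against sham its log2 differences at 28 and 42 dpi were -0.26 and -0.19, with adjusted p-values of 0.065 and 0.422 (limma), and with a same sum in all animals the step had an adjusted p of 0.102. Pcna was also the one gene of the 10 whose values went with many others: the 95th percentile of its correlation with all genes over the 29 animals was 0.772, beside 0.301 to 0.372 for the other 9. From 14 to 28 dpi markers of mature oligodendrocytes were lower as well. Their sum ran from 6396.6 to 7921.1 at 14 dpi and from 4578.3 to 6729.1 at 28 dpi, and against sham at 28 dpi all 8 were below 0, with a median of -0.36 and 5 at an adjusted p under 0.05 (limma), where 24.9% of all genes had such a p and 49.3% lay above 0. At 4 and 7 dpi their medians against sham were -0.24 and -0.17, while Pcna was at 0.09 and 0.16. The correlation of Pcna with their mean over the 29 animals was 0.69 (0.64 with group means subtracted), with astrocyte markers 0.53 (0.44) and with microglia markers 0.51 (0.43). These are correlations with means of lists, while the percentile of 0.772 is over single genes, so they are not like measures. The sum of the neuron markers was lower too, 4484.3 to 5604.7 at 14 dpi and 3655.3 to 4122.9 at 28 dpi. That of the microglia markers had a median of 195.3 at 14 dpi and 139.8 at 28 dpi. Median sums of the astrocyte, precursor, vessel, ependymal and blood leukocyte lists were higher at 28 than at 14 dpi. The part of these cell types in the Pcna values was not tested.

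Microglia markers and Gfap stood higher at 4 dpi in the same animals, while markers of oligodendrocytes and their precursors did not. All 12 microglia markers had a log2 difference above 0, where 51.9% of all genes did. Of the 12, 3 were called, beside 0.0941% of all genes. They were Csf1r, the receptor that microglia need to survive and multiply (0.74, adjusted p = 0.00915, limma), the complement gene C1qc (1.09, adjusted p = 0.0478, limma) and the receptor-like gene Fcrls (1.05, adjusted p = 0.0223, limma). Gfap, the intermediate filament of astrocytes, was called as well (1.18, adjusted p = 0.048), although the 8 astrocyte markers had a median of only 0.07. Their calls were lost in part of the 19 other settings and omissions: Csf1r was called in 16 of them, Fcrls in 10, Gfap in 8 and C1qc in 7, and all 4 calls were lost without 4 dpi animal A10-4 (adjusted p = 0.0986, 0.28, 0.477 and 0.436) and without A9-4 (0.0612, 0.109, 0.109 and 0.27). The summed value of the 12 microglia markers ran from 140.2 to 155.6 in sham and from 176.5 to 299.7 at 4 dpi, with none of them at 0 in a whole group. Over all 29 animals the correlation of Mki67 with the mean of the microglia markers was 0.58 and with that of the astrocyte markers 0.67, and once group means were subtracted 0.33 and 0.46. Within groups Mki67 went as closely with markers of mature oligodendrocytes (0.35) and of their precursors (0.34) as with those of microglia. For Top2a the values for microglia and astrocyte markers were 0.44 and 0.43, and -0.02 and -0.10 within groups, where its highest was with neuron markers (0.46). The 8 genes most like Mki67, named after their values were seen, were Top2a (0.75), Agt (0.72), the astrocyte markers Gja1 and Aqp4 (0.69 each), Vcam1 (0.69), Klhl6 (0.68), the Fc receptor gene Fcgr3 of microglia and other myeloid cells (0.67) and Tmem176a (0.67). With group means subtracted these values ran from 0.28 (Vcam1) to 0.60 (Gja1). The points share their normalization. Within the 4 animals at 4 dpi the order of the microglia sum differed from that of Mki67: A10-4 had the highest microglia sum (299.7) and the lowest Mki67 (2.4), and A9-2 the lowest sum (176.5) and an Mki67 of 4.8. At 14 dpi the microglia sum still ran from 162.4 to 212.2, above every sham animal, while Mki67 (0.7 to 2.0) did not exceed the sham range. The study itself counted cells stained for Iba1, a marker of microglia and macrophages, at C5/C6. At 4 dpi it reported more of them in the corticospinal tract of the dorsal funiculus. It saw no increase in the tract's projection area or in the dorsal and ventral horns. The part of glial cell number in the Mki67 and Top2a values was not tested.

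**Figure D4:**
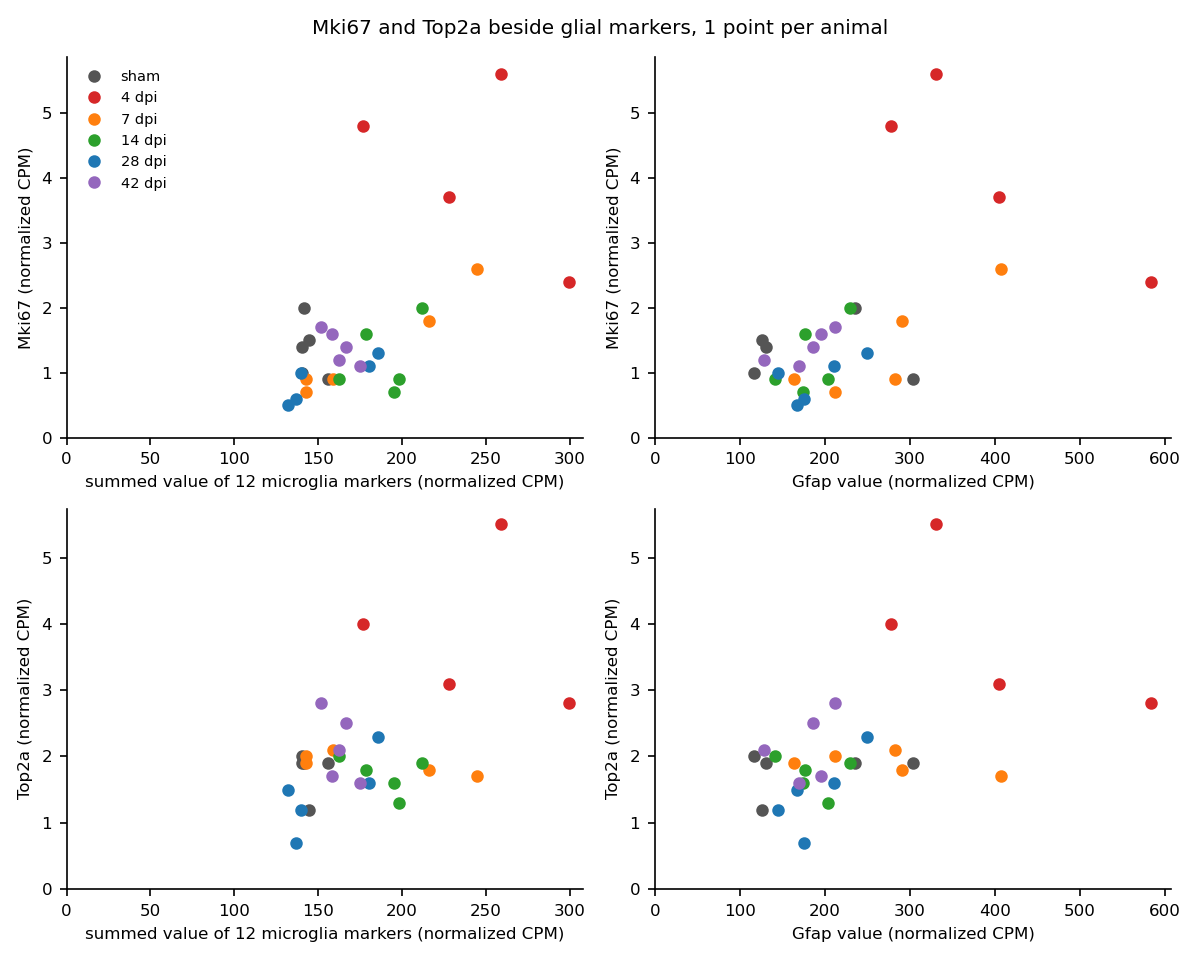
Mki67 and Top2a (vertical axes, normalized CPM) against the summed value of 12 microglia markers and against Gfap (horizontal axes, normalized CPM), 1 point per animal in 6 groups. The 4 animals at 4 dpi stand above all sham animals for both genes, with 1 animal at 7 dpi (2.6) above the lowest of them for Mki67 and 1 at 42 dpi level with it (2.8) for Top2a, and the one with the largest microglia sum (299.7) has the lowest Mki67 of the 4 (2.4).

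The 10 markers of oligodendrocyte precursors had a median log2 difference of -0.20 at 4 dpi, with 2 of 10 above 0 and none called (2 were lower at an unadjusted p under 0.05), and their sum ran from 317.6 to 343.3 beside 321.4 to 378.9 in sham. Medians were -0.24 for 8 mature oligodendrocyte markers, -0.11 for 9 markers of endothelial cells and pericytes, and -0.07 for 10 neuron markers, without a call. An unadjusted p under 0.05 (limma) was found in 4, 1 and 0 of them, all lower. Of all genes 2.37% were lower by that rule, and 51.9% had a log2 difference above 0. The 6 ependymal markers with a row had a median of 0.38, and none reached an unadjusted p of 0.05. Of 12 blood leukocyte markers only 5 had a row, summing to between 10.8 and 15.4 at 4 dpi and between 7.5 and 9.0 in sham, so this sum did not overlap sham either. Their median log2 difference was -0.06, with 2 of 5 above 0 and none called. Ptprc, which microglia also express, was at 0.97 (adjusted p = 0.054, limma) and Lyz2, a gene of myeloid cells, at 0.62 (adjusted p = 1.0). The other 3 were at -0.06 (the B cell gene Ms4a1), -0.10 (Ccr2) and -0.58 (Ly6c2, adjusted p = 0.784), the last 2 being genes of monocytes.

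Of 164 further cell cycle genes looked for, 138 had a row, so the lists do not cover the whole cycle. Cyclins, kinases and checkpoint genes of S, G2 and M phase kept 17 of 27, and genes of mitosis 31 of 36. Ccnb1, Plk1 and Aurkb were among those without a row. None of the 138 was called at 4 dpi. A log2 difference above 0 was found for 92, where 51.9% of all genes had one, and the median was 0.07. An unadjusted p under 0.05 was seen in 10 with a higher value and 3 with a lower one, beside 2.78% and 2.37% of all genes. Genes of mitosis had the highest median of these lists. Of 31 genes of the spindle, kinetochore and cytokinesis, 25 were above 0, with a median of 0.15. Ckap2l, a spindle protein gene, had the lowest p of that list at 4 dpi, with 0.48 ± 0.192 in sham and 0.95 ± 0.173 at 4 dpi (log2 difference 0.58, adjusted p = 0.65, limma). Anln, the most abundant gene of the list, which myelinating oligodendrocytes also express, was lower (-0.35, adjusted p = 0.691).

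Lists of replication and of the cycle's control had lower medians than the mitosis list, a difference that was not tested. Medians were 0.03 for 21 genes of origin licensing and the helicase, 0.07 for 28 genes of the replication fork, 0.01 for 9 genes of deoxynucleotide supply and 0.10 for 17 cyclins, kinases and checkpoint genes of S, G2 and M phase. At an unadjusted p under 0.05, 3 of 28 genes of the fork list were higher and none lower, and 5 of 31 of the mitosis list were higher and 1 lower, where 2.78% of all genes were higher and 2.37% lower. In the fork list 3 (Prim1, Uhrf1 and Chaf1b, named after their values were seen) stood above sham in every animal, as many as in the mitosis list, beside 1.09% of all genes. The most abundant licensing genes, Orc3 and Orc4, had log2 differences of 0.02 and -0.05, and Rrm1, the large reductase subunit, of 0.06. The G1 list of cyclins, E2F factors and pocket proteins had a median of 0.02 over 21 genes. Its lowest p belonged to Ccnd1, the cyclin that opens the cycle, at -0.27 (adjusted p = 0.499, limma). Inhibitors of the cycle were level too, with a median of -0.04 over 11 genes and 0.01 for Cdkn1b, which keeps cells out of the cycle. The relatives that work outside the cycle differed little from sham at 4 dpi, by -0.13 for Top2b, -0.10 for Rrm2b and 0.02 for Cdk5.

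**Figure D5:**
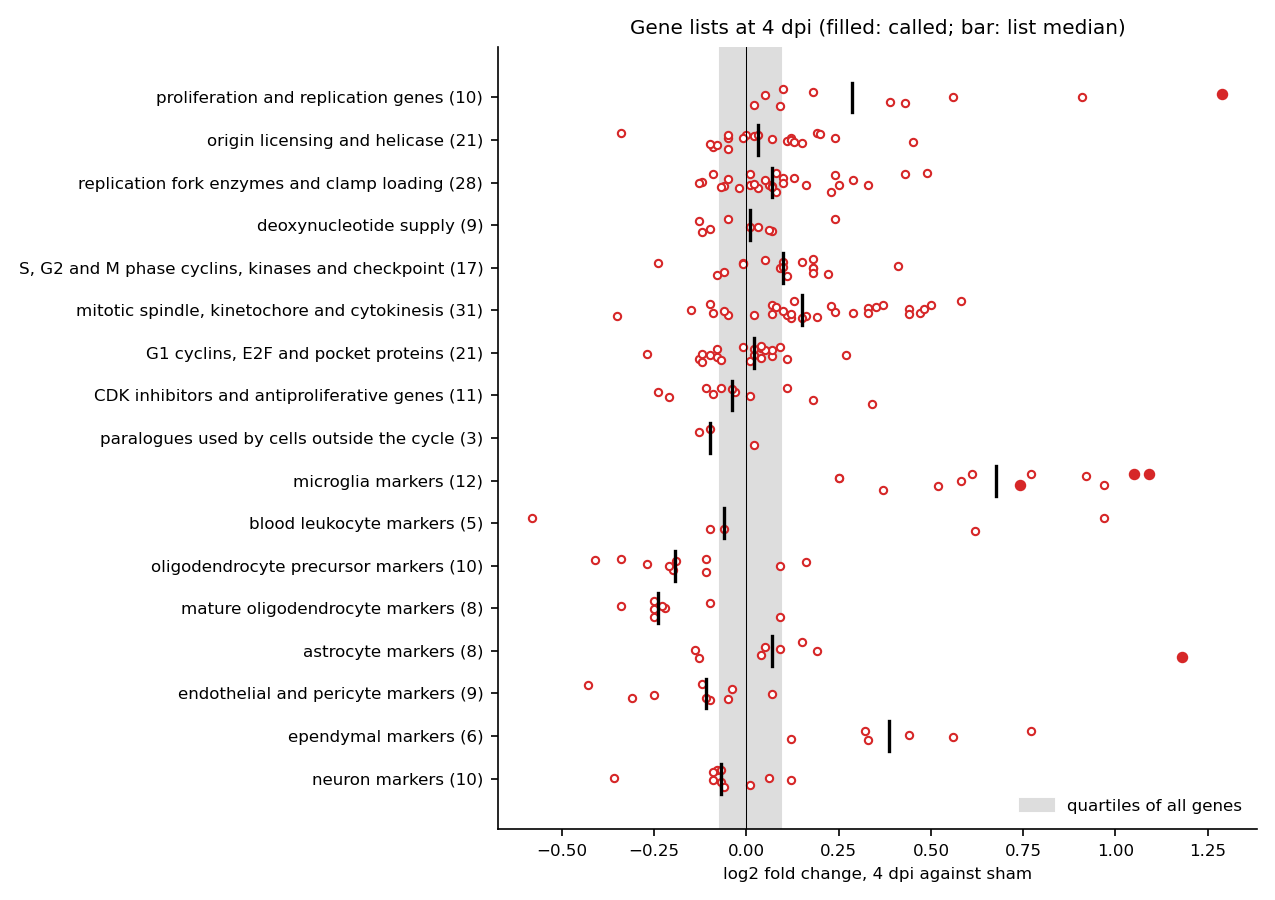
Log2 fold change at 4 dpi against sham for every gene with a row in each list, 1 point per gene; filled points were called, black bars are list medians, and the gray band runs between the quartiles of all genes. Besides Mki67, the called genes are 3 microglia markers and Gfap; the cell cycle lists other than the 10 genes have medians between -0.04 and 0.15.

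At 28 dpi, when 789 genes of the table were called, 3 of the 138 further cell cycle genes were among them, all higher (4.15% of all genes were called higher): Orc1 (0.81, adjusted p = 0.00315, limma), a subunit of the origin recognition complex, Chaf1b (0.76, adjusted p = 0.00333), a histone chaperone of the fork, and Mybl2 (0.88, adjusted p = 0.00807), a transcription factor of the cycle. All 3 are low genes, with sham means of 0.68, 0.70 and 0.40, and in each of them all 5 animals at 28 dpi stood above the sham range, as for 6.15% of all genes. The 10 genes themselves did not join them, with Mki67 at -0.41 and Top2a at -0.26. The calls of the 3 were lost when the ribosomal RNA value was a covariate (log2 differences of 0.67, 0.55 and 0.80, adjusted p = 0.0953, 0.129 and 0.12), and with a same sum in all animals (log2 differences of 0.30, 0.24 and 0.45). Chaf1b lost its call also with a pseudocount of 1. Of the 138 genes as a whole, 59 had a log2 difference above 0 at 28 dpi (49.3% of all genes did) and the median was -0.05. At an unadjusted p under 0.05, 12 were higher and 22 lower, both below the shares of 18.3% and 20.2% of all genes. The deoxynucleotide gene Rrm1 was 0.43 higher (adjusted p = 0.0015) and the inhibitor Cdkn1b 0.33 lower on the log2 scale (adjusted p = 0.00189), both under the fold limit, a limit without which 24.9% of all genes would be called. At 42 dpi none of the 138 was called (limma), with 6 higher and 8 lower at an unadjusted p under 0.05, near or below the shares of 8.4% and 6.35% of all genes. The antiproliferative gene Btg2 had the lowest p of its list, with a log2 difference of -1.28 (adjusted p = 0.128, limma).

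Over the 29 animals the 10 genes went together loosely. The 45 pairs had a median Pearson correlation of 0.296, beside medians between -0.035 and 0.022 for each gene with all genes of the table. Mki67 and Top2a had the highest, 0.749, which came down to 0.32 once the group means were subtracted, so most of it lay between groups. Ccna2 and Mcm2 behaved otherwise, with 0.611 as they stood and 0.705 within groups. These points share their normalization and the rounding of low values. Among genes with a mean value of at least 1, the 8 whose pattern was most like the mean of the 10 were Tom1 (0.73), Abhd4 (0.71), Tef (0.69), Mlst8 (0.67), Sdsl (0.66), Agt (0.66), Gstm1 (0.64) and Ddah2 (0.63), none of them in the cell cycle lists. Without that minimum, 7 of them were shared with the 8 likest genes. The likest cell cycle gene was Pold1, the catalytic subunit of DNA polymerase delta, at 0.61 and rank 25 with the minimum.

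Some reads could belong to other genes. Exons of Ccna2 overlap the opposite-strand gene Exosc9 over 12.49% of their length, those of Cdc45 overlap Ufd1 over 5.96%, and the TruSeq kit used is known as one that does not mark strand. Of the words of 31 bases in Pcna transcripts, 11.7% also occur in its pseudogene Pcna-ps2, and 9.69% of those of Rrm2 occur in other transcripts. For Mki67 and Top2a this share was 0.735% and 3.4%, and for Cdk1 it was 0.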

How the data were processed

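RNA of 29 animals was compared. Per the labels and the study's methods, the authors depleted ribosomal RNA, made TruSeq libraries, quantified reads with SALMON and Tximport on mm10 and normalized them with edgeR 3.14.0 in R 3.4.1. The deposited score values are normalized CPM rounded to 0.1, so depth is unknown. The study states a lower limit of 5 for expression, yet 5849 genes of the table average 5 or less, and how that limit was applied was not tested. One labelled animal at 4 dpi has no column and was not analysed here; the study describes leaving out 1 such animal as an outlier in differential expression. The authors' own fold changes and p-values were not used.

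Values entered limma 3.58.1 (R 4.3.3) as log2(value + 0.5), with a trend and 1 mean per group, over all 16995 genes with Benjamini-Hochberg adjustment. The script was tested on simulated data. Labels do not say more of the replicates than that they are separate animals, so p-values measure the spread between these samples. The 10 genes and all lists were chosen with earlier results of these data known. Other genes could be named as the 4 of highest mean in a list, as called, as lowest in p per contrast, or as the 8 most like the 10 genes. Alternatives were 3 other scalings, pseudocounts of 1 and 0.05, a minimum mean of 1, no trend, pairwise fits, other limits, the label unit as a block, ribosomal RNA as a covariate, and omission of each animal.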

Additional observations from a re-analysis of the deposited data

Results flagged for a closer look

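Among 60 sets of values (10 genes in 6 groups), 2 held an animal far from the others of its group by Dixon's test, which chance alone flags in about 1 of 20. Top2a was 1.2 in sham animal A12-1, where the other 4 sham animals gave 1.9 to 2.0, and Cdk1 was 1.0 in sham animal A11-1, where the others gave 0.5 to 0.6. With all animals neither Top2a nor Cdk1 was called at 4 dpi (adjusted p = 0.054 and 0.793, limma). Neither was called in any of the 9 fits that left out 1 animal.

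The effect on Pcna differed between 14 and 28 dpi by a test of the step itself, a log2 difference of -0.45 with an adjusted p of 0.00113 (limma). It kept an adjusted p under 0.05 in each of the 10 fits that left out 1 animal of either group.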

How the results depend on the processing

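Against sham at 4 dpi the report calls 1 of the 10 genes, Mki67. This became 2 (with Top2a) at an adjusted p under 0.1, with median centring, with a pseudocount of 1 and with a random block for the label unit (block correlation -0.0441), and 0 with quantile normalization, without a trend, in a fit limited to both groups and with a pseudocount of 0.05. Over the single omissions it was 0 to 1. From 4 to 7 dpi it was 1 in place of 0 at an adjusted p under 0.1 and with the same sum in all animals, and 0 to 1 over the omissions. From 14 to 28 dpi 1 gene (Pcna) was called with no fold limit, and from 28 to 42 dpi 0 to 1 over the omissions, the 1 being Top2a without 28 dpi animal A4-1 (log2 difference 0.60, adjusted p = 0.0469, limma). The same sum, under which ribosomal RNA lowers all other values, shifted the median of all genes by -0.48, -0.72 and -0.52 at 14, 28 and 42 dpi, and the median of the 10 genes was then -0.42, -0.77 and -0.41; 7 of them were called lower at 28 dpi (64.9% of all genes were), and 9 passed the F test in place of 3 (66.6% of all genes did, in place of 31.6%). Over all genes, the number called at 4 dpi (16) ran from 9 to 25 in other settings and from 3 (without 4 dpi animal A10-4) to 33 (without A9-2) over omissions, and at 28 dpi (789) from 0 (ribosomal RNA as a covariate) to 11056 (same sum). The cause of these shifts was not tested. The exact p-values, computed again with a pseudocount of 1 and on values without a log (100 in all), stayed on their side of 0.05. No paired analysis was possible because no animal number is shared between groups. Values rounded to 0.1 limit what Cdk1, Rrm2, Cdc45 and Ccna2 can show.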
